A study of Mus musculus with 30 samples.

Results

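The 26 probe sets described here gave a signal in every vehicle-treated mouse liver and lost it in most livers treated with an agonist of the nuclear receptor PPAR-alpha. They were chosen from the measured values themselves. A probe set was taken if its intensity lay above 50 on all 8 vehicle arrays and at exactly 50 on at least 16 of the 22 agonist arrays. The value 50 is the lowest in the deposited table and is called the floor here. Of 12422 probe sets other than controls, 5125 were above the floor on all vehicle arrays, and 26 of these (0.507%) met the second condition. All 26 passed the filter on low values used for testing, through their vehicle arrays.

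Livers came from male C57Bl/6 mice that received CP-775146, CP-868388 or CP-865520, which belong to the piperidine class, at 1 mg/kg per day for 24 h or 5 days, or water as vehicle. Each group held 4 mice, except CP-775146 at 5 days with 2, and each of the 30 livers was measured on 1 array of biotin-labelled RNA. Only this dose was given, and the 3 compounds at a time share the same 4 vehicle livers. Gene names do not accompany the probe sets in the deposited table, so transcripts are given by probe set ID. For the same reason the liver origin was not checked against marker genes, and no promoter or other sequence could be assigned.

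PPAR-alpha is activated in hepatocytes by fatty acids and by synthetic agonists. It pairs with the retinoid X receptor on DNA and switches on genes of fatty acid uptake, peroxisomal and mitochondrial oxidation and ketone body formation. Agonists also lower many liver transcripts, among them genes of inflammation and of the acute phase response, in part through interference with other transcription factors. In RNA from whole liver, fewer cells of a type and less RNA per cell cannot be told apart.

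The 26 probe sets were dim under vehicle. Their mean intensities over the 8 vehicle arrays ran from 60.9 to 196, with a median of 79.8, against a median of 228 for all 5125 probe sets above the floor in vehicle. Only 7 had a vehicle mean over 100, and 12 had a mean under 75. By vehicle level, the 26 made up 12 of 119 probe sets with a vehicle mean between 50 and 75, 7 of 474 between 75 and 100, 5 of 1012 between 100 and 150 and 2 of 657 between 150 and 200. None of the 2863 probe sets with a vehicle mean of 200 or more was among them. Floor values in agonist livers were common among dim probe sets in general. Of the 119 with a vehicle mean between 50 and 75, only 23 were above the floor on every agonist array, and their median was 5 agonist arrays at the floor. Of the 657 with a mean between 150 and 200, 522 were above the floor on every agonist array.

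**Figure D1:**
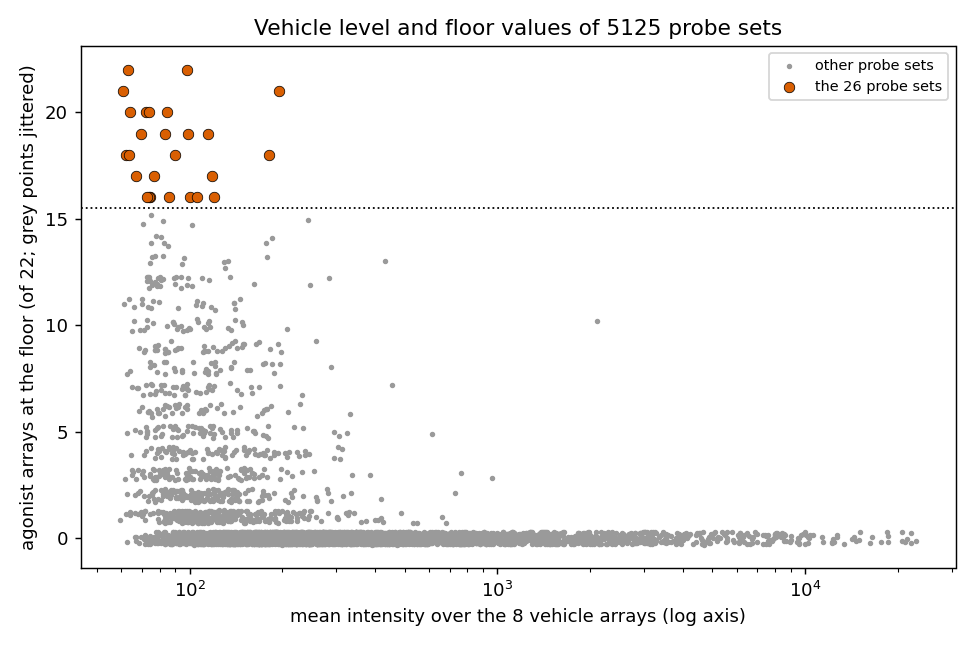
Number of agonist arrays at the floor (vertical axis, of 22) against mean intensity over the 8 vehicle arrays (horizontal log axis) for 5125 probe sets above the floor in all vehicle livers. The 26 probe sets (orange) lie above the dotted line by selection, all with a vehicle mean of 196 or less; grey points are shifted slightly up or down at random to separate them.

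The probe set with the highest vehicle mean, 95349_G_AT, was also the most variable. Its vehicle intensities were 70, 85, 212 and 784 at 24 h and 51, 55, 169 and 142 at 5 days. A single liver at 784 set the high mean, and 2 vehicle livers at 5 days were barely above the floor. It stood at 50 on all 12 agonist arrays at 24 h and, apart from 1 array of CP-868388 at 52, on all arrays at 5 days. Of the 26 IDs, 22 (84.6%) ended in AT with no further letter, as did 77.4% of all probe sets, and 2 carried an F, which marks probe sets that can detect several members of a sequence family.

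95933_F_AT had the highest minimum of the 26 under vehicle, 122. Its vehicle intensities were 154, 217, 164 and 136 at 24 h and 223, 252, 122 and 182 at 5 days. Under CP-775146 all 6 arrays were at 50, at least 3.30-fold lower than vehicle at 24 h and at least 3.76-fold lower at 5 days. These bounds are ratios of geometric mean intensities with the floor in place of the unknown level. CP-865520 gave 56, 50, 50 and 50 at 24 h and 50 on all arrays at 5 days. CP-868388 kept 1 liver at 113 at 24 h, where the other 3 were at 50, and gave 57, 50, 52 and 50 at 5 days. No agonist array reached the lowest vehicle array of this probe set.

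Complete loss on all 22 agonist arrays was seen in 101431_AT and 104407_AT. 101431_AT read 106, 156, 111 and 180 in vehicle livers at 24 h but only 51, 57, 51 and 73 at 5 days. The lower bound of its fall was therefore 2.70-fold at 24 h and only 1.15-fold at 5 days for every compound. 104407_AT was dimmer, at 66, 76, 62 and 76 at 24 h and 64, 58, 51 and 52 at 5 days, with bounds of 1.39-fold and 1.12-fold. In 4 further probe sets (95933_F_AT, 94207_AT, 101457_AT and 104569_AT) every agonist array was below every vehicle array, although some agonist arrays were above the floor. Separation of this kind was found in 3.32% of the 5125 probe sets above the floor in vehicle, and in the 26 it rests on values that the rule used. In the other 20, at least 1 agonist array reached the vehicle range when both times were pooled. Among these were 102955_AT, 95417_AT, 99350_AT, 102338_AT, 104215_AT and 103441_AT, where no agonist group overlapped the vehicle livers of its own time. The share of the 5125 with that separation is not given, and it too rests on values that the rule used. Across all groups held entirely at the floor, the bounds ran from 1.12-fold to 3.76-fold, so the table cannot show how far most of these signals fell.

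**Figure D2:**
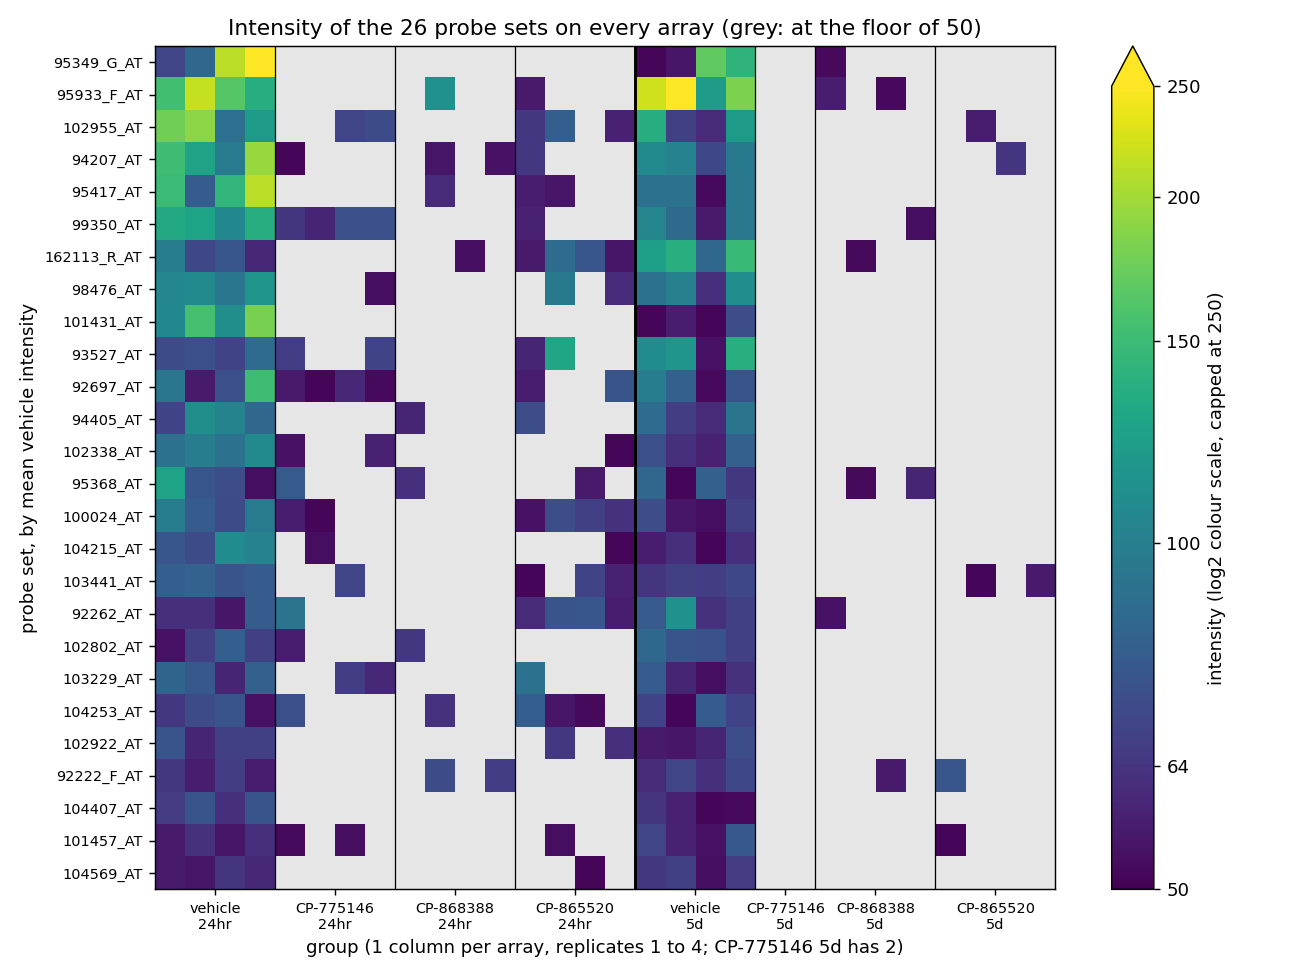
Intensity of the 26 probe sets (rows, by mean vehicle intensity) on each of the 30 arrays (columns, grouped by treatment and time), with colour on a capped log2 scale and grey for values at the floor of 50. Both vehicle groups are coloured throughout, CP-865520 at 24 h keeps the most coloured cells among agonist groups (41 of 104), and CP-775146 at 5 days has none.

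Signal was lost less completely at 24 h than at 5 days. At 24 h, 80 of 312 agonist values were above the floor, against 15 of 260 at 5 days. Of the 5125 probe sets above the floor in vehicle, single agonist arrays held 55 to 367 at the floor at 24 h. At 5 days they held 168 to 529, so higher floor counts at 5 days were not confined to the 26. By probe set, 15 of the 26 were at 50 on all 10 agonist arrays at 5 days, and 3 (95349_G_AT, 101431_AT and 104407_AT) on all 12 at 24 h. The values that remained at 5 days were low, the highest being 77. At 24 h the highest was 130, in 1 CP-865520 liver for 93527_AT, whose vehicle intensities were 72, 74, 69 and 88 at that time. These counts describe values that the choice of probe sets used, and they carry no test. The share of all probe sets above the floor in vehicle that were at 50 on every agonist array of a time is not given.

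The compounds left different numbers of probe sets at the floor at 24 h. Under CP-868388, 17 of the 26 were at 50 on all 4 arrays, where 0.585% of the 5125 probe sets above the floor in vehicle were. CP-775146 left 10 of the 26 at 50 on all 4 arrays (0.234% of the 5125), and CP-865520 left 5 (0.137%). Without CP-865520 replicate 1, the count for that compound was 10. On single arrays, 21 to 25 of the 26 were at the floor under CP-868388, 15 to 22 under CP-775146 and 12 to 19 under CP-865520. Arrays of CP-868388 and CP-865520 therefore did not overlap in this count, while CP-775146 overlapped with both.

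At 5 days all 3 compounds were close to complete loss. CP-775146 left all 26 at 50 on both of its arrays, against 3.86% of the 5125. CP-868388 left 19 of 26 at 50 on all 4 arrays (0.917% of the 5125) and CP-865520 left 21 (1.5%). A group of 2 arrays is at the floor throughout more easily than a group of 4, so the CP-775146 count is not comparable with the others. Single arrays had 23 to 24 of the 26 at the floor under CP-868388 and 24 to 25 under CP-865520. The CP-865520 range had been 12 to 19 at 24 h.

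At 24 h the floor also held more of the whole array under CP-775146 and CP-868388 than under vehicle, but not under CP-865520. Of 12422 probe sets, 5967 to 6162 were at 50 in vehicle livers at 24 h, 5882 to 6103 under CP-865520, 6225 to 6428 under CP-775146 and 6438 to 6856 under CP-868388. The order of the compounds at 24 h was thus the same as in the 26 probe sets. At 5 days the ranges were 5718 to 5980 under vehicle, 6498 to 6735 under CP-775146, 6256 to 6744 under CP-868388 and 6151 to 6654 under CP-865520. There the order was not kept: the mean was 6394 under CP-865520 and 6410 under CP-868388. Of the 26, a mean of 24.5 per array were at the floor under CP-865520 and 23.75 under CP-868388. A measure of RNA integrity also differed at 24 h. The Gapdh control probe sets at the 5' and 3' ends had a mean log2 ratio (5' over 3') of -0.36 under CP-868388. The mean was 0.02 for vehicle, -0.05 for CP-865520 and 0.03 for CP-775146. It was below -0.4 on 3 arrays, replicate 4 of CP-865520 and replicates 1 and 3 of CP-868388, all at 24 h. The same ratios of the Actb and Pcx controls entered the integrity covariate used below together with Gapdh, but are not given here. The part of floor counts or Gapdh ratio in the loss of the 26 signals was not tested.

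**Figure D3:**
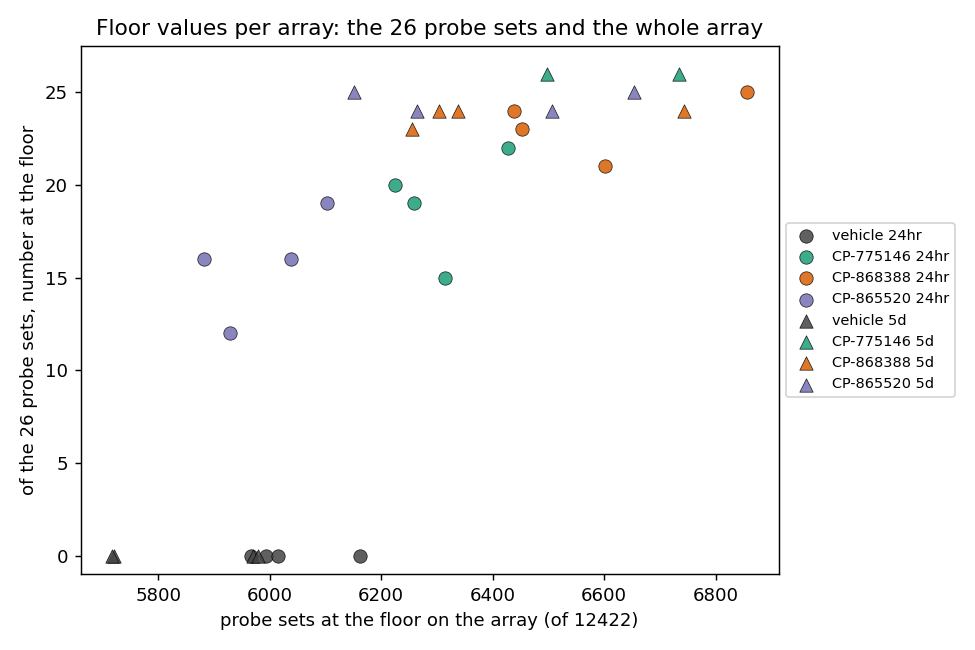
Number of the 26 probe sets at the floor (vertical axis) against the number of all 12422 probe sets at the floor (horizontal axis), with 1 point per array, circles for 24 h and triangles for 5 days. Vehicle arrays are at 0 of 26 and agonist arrays are high by selection; among agonist arrays, CP-865520 at 24 h has the lowest counts (12 to 19 of 26), and every 5-day array has 23 or more.

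At 24 h, CP-775146 left 16 of the 26 above the floor on at least 1 array and CP-865520 left 21. The 15 in common were 93.8% of the first list and 71.4% of the second, and since CP-865520 left most of the 26, a large overlap with it follows from the size of its list. CP-868388 left 9, of which 7 were also left by CP-865520 and 4 by CP-775146. In 12 probe sets a signal remained under both CP-775146 and CP-865520 while all 4 CP-868388 arrays were at 50. The share of the 5125 probe sets above the floor in vehicle with this pattern is not given. Of those 5125, single arrays at 24 h held 130 to 367 at the floor under CP-868388. The ranges were 86 to 130 under CP-775146 and 55 to 120 under CP-865520, so the pattern is not shown to be particular to the 26. Many remaining signals were isolated: a lone array above the floor made up 8 of the 16 cases under CP-775146, 7 of 9 under CP-868388 and 10 of 21 under CP-865520.

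Differences between compounds were tested with limma on log2(intensity + 50) with Benjamini-Hochberg adjustment over all 7963 probe sets tested. The rule did not use the difference between compounds or times, but it did use the same agonist values. At most 6 of the 22 can differ from 50 in any of the 26, so most of these differences were held near 0 by the choice of probe sets, and counts without a call say nothing of how alike the groups are. Calls were made where the adjusted p lay under 0.05. Of the 26, CP-775146 and CP-868388 at 24 h differed in 1, and so did CP-868388 and CP-865520 in another 1. Over all probe sets tested, 11.2% were higher under CP-775146 in the first pair and 19.8% were lower under CP-868388 in the second, so neither count exceeds the background. With each array centred on transcripts that never reach the floor, neither of these calls passed, and other members of the 26 were called the opposite way: 1 was lower under CP-775146 in the first pair and 4 were higher under CP-868388 in the second. The share over all probe sets under centring is not given, so these counts are not set against a background.

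99350_AT was the probe set that CP-775146 left higher than CP-868388. Its vehicle intensities at 24 h were 132, 127, 106 and 136. CP-775146 gave 64, 59, 74 and 74, below all vehicle arrays but above the floor in every liver, while all 4 CP-868388 arrays were at 50. The log2 difference was 0.23 ± 0.07 (SE, n = 4 each), with a 95% interval from 0.08 to 0.38 and limma adjusted p = 0.0309. CP-865520 gave 58, 50, 50 and 50, also without overlap with CP-775146, but that difference of 0.21 did not pass (limma adjusted p = 0.191). The call was lost with RNA integrity as a covariate (limma adjusted p = 0.517), without the 3 arrays of low Gapdh ratio (0.277), under centring (0.248) and with no filter on low values (0.0519), and its adjusted p ran from 0.000559 to 0.517 over all alternatives. It was also lost without CP-775146 replicate 3 (0.0979) or 4 (0.0936) or CP-868388 replicate 1 (0.0632), 2 (0.0505) or 3 (0.0859), all at 24 h.

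100024_AT was the probe set that CP-865520 left higher than CP-868388. Vehicle livers read 98, 80, 72 and 97 at 24 h. CP-865520 gave 54, 73, 68 and 63, while CP-868388 gave 50 throughout, and CP-775146 gave 57, 51, 50 and 50. The log2 difference, CP-868388 minus CP-865520, was -0.19 ± 0.06 (SE, n = 4 each), with a 95% interval from -0.31 to -0.08 and limma adjusted p = 0.0132. Over the alternatives its adjusted p ran from 0.00125 to 0.638, with the call lost under quantile normalization (0.0568), under centring (0.638), with the integrity covariate (0.094), without the 3 arrays of low Gapdh ratio (0.107), in a fit of the compared groups alone (0.0504) and without CP-865520 replicate 2 (0.0570).

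For the pair CP-775146 and CP-865520, limma at 24 h called 0 of the 26, with 0.1% of all probe sets called, and 3 of the 26 had an unadjusted p under 0.05. At 5 days limma called 0 of the 26 in each pair and 0 of the 26 had an unadjusted p under 0.05. Over all probe sets, 0.0753% were called for CP-775146 minus CP-868388, 0.0251% for CP-775146 minus CP-865520 and 0.0628% for the remaining pair. On the log2(intensity + 50) scale, the 95% intervals of all 26 lay between -0.70 and 0.70 in each 24 h pair and between -0.87 and 0.86 in each 5-day pair. These intervals are widest for 95349_G_AT, whose spread comes from its vehicle arrays.

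Between the times, limma called 2 of the 26 under CP-865520, both lower at 5 days, where 21% of all probe sets were lower. Under centring neither passed, and 3 others were called, all higher at 5 days, again without a share over all probe sets to set beside them. 100024_AT went from 54, 73, 68 and 63 at 24 h to 50 in all 4 livers at 5 days (log2 -0.19 ± 0.06 SE, limma adjusted p = 0.00953). The call held under the 40 alternatives that could test it, except centring (0.546). 162113_R_AT went from 56, 88, 77 and 55 to 50 in all 4 livers (log2 -0.24 ± 0.09 SE, limma adjusted p = 0.0441). In 18 of 41 alternatives it did not pass, and limma's adjusted p lay between 0.00403 and 0.399. Among these were the fits without CP-865520 replicate 2 (0.197) or 3 (0.130) at 24 h, without any single CP-865520 replicate at 5 days (0.0696 to 0.0792), and without CP-775146 replicate 2 (0.0505), 3 (0.0504) or 4 (0.0502) or CP-868388 replicate 2 (0.0503) at 24 h. For 162113_R_AT those 24 h values overlapped the vehicle livers of that time (99, 71, 77 and 60), so under CP-865520 its loss showed at 5 days. Under CP-775146 and CP-868388 limma called 0 of the 26 between the times, with 26.6% and 8.54% of all probe sets called and with 1 and 0 of the 26 at an unadjusted p under 0.05.

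Vehicle livers at 5 days were also compared with those at 24 h. The rule required a signal in both groups and did not use their difference. In limma's test, 10 of the 26 were lower at 5 days than at 24 h and 1 was higher, against 11.5% lower and 11.2% higher over all probe sets. The median log2 difference of the 26, 5 days minus 24 h, was -0.15, beside 0 for all probe sets tested. The spread in this fit was shared with agonist arrays that the rule held mostly at the floor, where they have no spread. This can make its SEs and adjusted p too small for a comparison of vehicle livers. When only the 8 vehicle arrays were fitted, limma called 4 of the 26, all lower at 5 days, where 14.5% of all probe sets were called in either direction. With direction ignored, the count of 4 is thus near the background. The share of lower calls alone is not given for this fit, so the shared direction of the 4 is not set against a background. The calls of 101431_AT, 102338_AT and 104215_AT held under every alternative that tested them, and the strict filter (above 80 on at least 4 arrays) left 104215_AT out.

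**Figure D4:**
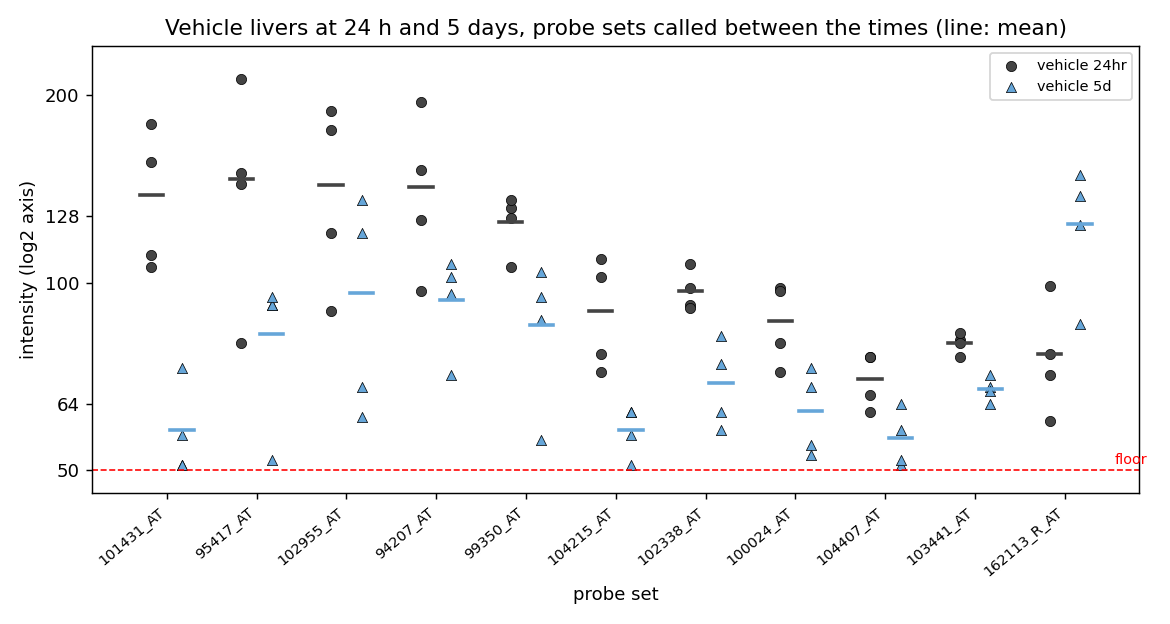
Intensity (log2 axis) of the 11 probe sets called between vehicle livers at 24 h (circles) and 5 days (triangles), with 1 point per liver, short lines for group means and a dashed line for the floor of 50. All but 162113_R_AT have the lower mean at 5 days, and 101431_AT, 102338_AT, 103441_AT, 104215_AT and 99350_AT have no overlap between the times, as is the case, lower at 5 days, for 14.9% of the 5125 probe sets above the floor in vehicle.

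101431_AT had the largest of these differences. Its mean fell from 138 ± 35.8 (SD, n = 4) at 24 h to 58 ± 10.4 at 5 days, a log2 difference of -0.79. With only vehicle arrays, limma gave adjusted p = 0.0162. The main limma fit gave adjusted p = 2.5e-07 with an SE of 0.08, both made small by the 22 agonist arrays at 50. All 4 livers at 5 days were below all 4 at 24 h. 104215_AT read 77, 72, 109 and 102 at 24 h and 57, 62, 51 and 62 at 5 days (log2 -0.37 ± 0.05 SE, limma adjusted p = 3.85e-05 and 0.0427 with only vehicle arrays). 102338_AT read 92, 98, 91 and 107 and then 74, 62, 58 and 82 (log2 -0.31 ± 0.04 SE, limma adjusted p = 3.38e-05 and 0.0349). In neither did the times overlap, and the main-fit SE and adjusted p of both also drew on agonist arrays mostly at 50.

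103441_AT was the fourth that passed with only vehicle arrays (limma adjusted p = 0.0225), at 81, 83, 76 and 80 and then 64, 68, 67 and 71. Its main adjusted p was 0.0345, and 8 of 39 alternatives lost the call (adjusted p from 0.00869 to 0.232). These included the fits that left out vehicle replicate 1, 2 or 4 at 24 h or 1, 2 or 3 at 5 days. 99350_AT went from 132, 127, 106 and 136 to 104, 87, 56 and 95 without overlap, but was lost with only vehicle arrays (limma adjusted p = 0.0832). The others called lower at 5 days were 95417_AT, 102955_AT, 94207_AT, 100024_AT and 104407_AT, and the times overlapped in each of them. All 5 were lost with only vehicle arrays. 102955_AT was also lost without vehicle replicate 1 (limma adjusted p = 0.127) or 2 (0.144) at 24 h, or without 2 (0.144) or 3 (0.165) at 5 days, within a range of 0.00644 to 0.279. In the opposite direction, 162113_R_AT went from 99, 71, 77 and 60 to 124, 138, 86 and 149 (log2 0.45 ± 0.09 SE, limma adjusted p = 0.00114), which did not pass with only vehicle arrays (0.0746).

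One vehicle array was low in many of these probe sets. At 5 days, replicate 3 was the lowest of the 4 vehicle livers in 18 of the 26, and in 35.6% of all 5125 probe sets above the floor in vehicle. Its median intensity over the 26 was 60, against 79.5, 68 and 74.5 in the others. This array bears on which probe sets were chosen, since each had to exceed the floor on it. Without it, 42 probe sets would have met the rule. Without it, limma called 12 of the 26 between the vehicle times, 8 lower and 4 higher at 5 days. The share over all probe sets in that fit is not given, so these counts are not set against a background.

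Remaining signals under CP-775146 at 24 h were broadest in 99350_AT and 92697_AT, which were above the floor in all 4 livers. 92697_AT gave 56, 51, 60 and 52 there, against 94, 56, 74 and 152 under vehicle, and the groups overlapped. It gave 57, 50, 50 and 76 under CP-865520 and 50 throughout under CP-868388. 102955_AT, at 176, 189, 90 and 120 in vehicle livers, gave 50, 50, 70 and 72 under CP-775146 and 65, 81, 50 and 58 under CP-865520, without overlap with vehicle, and 50 throughout under CP-868388.

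CP-865520 at 24 h left 3 probe sets above the floor in all 4 livers: 100024_AT, 162113_R_AT and 92262_AT. 92262_AT gave 61, 76, 77 and 57 there, within the range of the vehicle livers at 62, 62, 55 and 80. At 24 h it read 93 in 1 liver of CP-775146 and 50 in the other 3, and 50 throughout under CP-868388. 98476_AT, a steady signal of 105, 108, 94 and 116 in vehicle livers, read 96 in 1 CP-865520 liver, 61 in another and 50 in the other two. All 10 agonist arrays at 5 days were at 50 for 98476_AT.

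Some signals remained under CP-868388 and not under CP-775146. 94405_AT (vehicle 69, 111, 103 and 85 at 24 h) kept 59 in 1 CP-868388 liver and 73 in 1 CP-865520 liver. 95417_AT (vehicle 150, 80, 144 and 212) kept 61 in 1 CP-868388 liver and 57 and 55 in 2 CP-865520 livers. For 92222_F_AT the CP-868388 values at 24 h were 50, 72, 50 and 67, overlapping the vehicle values of 65, 57, 67 and 57. It was at 50 on all CP-775146 arrays at both times and on all CP-865520 arrays at 24 h, and it gave 77 in 1 CP-865520 liver at 5 days.

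A signal at 5 days remained in 11 of the 26, in 6 under CP-868388 alone, in 4 under CP-865520 alone and in 1 under both. The 4 under CP-865520 alone were 102955_AT, 94207_AT, 103441_AT and 101457_AT. 94207_AT gave 64 in 1 such liver, against 107, 102, 71 and 96 under vehicle at 5 days. 95368_AT gave 52 and 59 in 2 CP-868388 livers at 5 days, within the vehicle range of 85, 51, 82 and 65. The other 5 under CP-868388 alone (95349_G_AT, 95933_F_AT, 99350_AT, 162113_R_AT and 92262_AT) reached at most 57 there.

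Among the dimmest of the 26, the distance between vehicle and floor was small. 104569_AT read 56, 55, 64 and 60 in vehicle livers at 24 h and 65, 68, 53 and 66 at 5 days, and its bound was 1.17-fold at 24 h and 1.25-fold at 5 days. It was at 50 on 21 agonist arrays and at 51 on 1. 101457_AT read 56, 63, 55 and 62 and then 70, 58, 54 and 78 under vehicle, and at most 53 under any agonist. 102922_AT, at 76, 59, 68 and 68 and then 56, 55, 59 and 73 under vehicle, kept 65 and 62 in 2 CP-865520 livers at 24 h, where the groups overlapped. A change of a few intensity units is enough to bring such probe sets to the floor.

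The remaining 4 probe sets had vehicle means between 67 and 89.9 and repeated these patterns. 93527_AT, 103229_AT and 104253_AT each had a CP-865520 liver at 24 h (130, 92 and 81) above the highest vehicle liver of that time, beside 2, 3 and 1 livers at 50 in that group. 102802_AT kept 57 in 1 CP-775146 liver and 65 in 1 CP-868388 liver, with vehicle at 54, 68, 81 and 68. All 4 were at 50 on every agonist array at 5 days.

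Around the threshold, 7 of the 26 were at the floor on exactly 16 agonist arrays, and 5 other probe sets were at the floor on exactly 15. The brightest inside were 102955_AT, 99350_AT and 162113_R_AT, with vehicle means of 120, 105 and 100.5. The brightest just outside were 94797_AT, 98112_R_AT and 97282_AT, with vehicle means of 242, 102 and 81.8. 94797_AT, with vehicle livers from 97 to 327, had a higher vehicle mean than any of the 26. A further 34 probe sets met the agonist condition but were above the floor on only 7 of the 8 vehicle arrays.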

How the data were processed

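Intensities of 12488 probe sets on 30 arrays, 1 per liver, were taken as deposited. The submitters' processing notes name MAS5. Its version, how arrays were scaled and how the floor arose are not stated in those notes as used here. Per the deposited table, intensities are whole numbers from 50 to 29064, array means lay between 314 and 318, and 50.3% of values equal 50. No array pair was identical. Groups come from the sample titles, and mice are counted as in the series' design text.

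All probe sets except 66 controls that exceeded 50 on at least 2 arrays (7963) were fitted as log2(intensity + 50), which understates changes of dim probe sets, with 8 group means in limma 3.58.1 (R 4.3.3; lmFit, eBayes with trend, two-sided, Benjamini-Hochberg). The code was tested on simulated data, with changes planted only in probe sets brighter than these 26. Recovery of changes in probe sets as dim as these was not tested. The 26 probe sets, comparisons and lists were chosen with earlier results of these data known. Contrasts of the 26 with vehicle were used in their selection and are not tested.

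Probe sets named with values were the 25 of highest vehicle mean, those called, and the 3 brightest on each side of the threshold; 104569_AT was added after its values were seen. Gene lists, cell type markers and tests of other probe sets of the same genes were planned but not applied, because no probe set is paired with a gene. Plots used matplotlib 3.10.9 in Python 3.11.15.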

Additional observations from a re-analysis of the deposited data

Results flagged for a closer look

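99350_AT differed between CP-775146 and CP-868388 at 24 h by a log2 of 0.23 (limma adjusted p = 0.0309, range over alternatives 0.000559 to 0.517), as 4 of 4 CP-775146 livers were above all CP-868388 livers. 100024_AT differed between CP-868388 and CP-865520 at 24 h by -0.19 (limma adjusted p = 0.0132, range 0.00125 to 0.638), as 4 of 4 CP-865520 livers were above all CP-868388 livers. Both drew attention because a test of the difference between the compounds passed. That test used agonist values that the rule also used, with every CP-868388 liver at the floor. Over all probe sets tested, 11.2% and 19.8% were called in the same directions, so neither call stands out from the background. Both calls were lost with integrity as a covariate (limma adjusted p = 0.517 and 0.094). They were also lost without the arrays of low Gapdh ratio (0.277 and 0.107) and under centring (0.248 and 0.638).

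Single livers stood apart from the other 3 of their group. For 95417_AT, 1 vehicle liver at 5 days was at 52, where the others were between 92 and 95. This was 1 of 52 vehicle groups examined, where chance gives about 1 in 20. One CP-868388 array at 5 days had 23 of the 26 probe sets at the floor, while each of the other 3 had 24. Where 3 livers sit at the floor, the remaining one above it stands apart by construction. At 24 h this happened in 8 of the 26 probe sets for CP-775146, in 7 for CP-868388 and in 10 for CP-865520. At 5 days it happened in 5 for CP-868388 and in 4 for CP-865520.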

How the results depend on the processing

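The number of probe sets meeting the rule was 16 with at least 18 agonist arrays at the floor, 2 with all 22, 1 with vehicle above 100 on all arrays, and 19 to 42 with 1 array left out (42 without vehicle replicate 3 at 5 days). With intensities of 60 or less counted as floor, a setting added after the data were seen, 18 were at the floor on all arrays under CP-775146 and 13 under CP-865520 at 24 h. With 1 array left out these counts were 11 to 15 and 6 to 10. The counts of calls that moved by over 1.5 times are given next, with the cause not tested. Shares over all probe sets in these alternative fits are not given beside the counts, which are therefore not set against a background here. For CP-775146 against CP-868388 at 24 h the count of 1 became 0 without a filter, without the 3 arrays of low Gapdh ratio and with integrity as a covariate, and was 0 to 1 with 1 array left out. For CP-775146 against CP-865520 at 24 h the 0 became 2 with only agonist groups fitted (also added later), and stayed 0 with 1 array left out. For CP-868388 against CP-865520 at 24 h the 1 became 2 with log2(intensity + 1), 3 with only agonist groups, 4 with centring, and 0 with the strict filter (above 80 on at least 4 arrays), quantile normalization, only the compared groups or the integrity covariate. It was 0 to 3 with 1 array left out (0 without CP-865520 replicate 2 and 3 without replicate 4, both at 24 h, and 2 without CP-865520 replicate 1, CP-775146 replicate 1 or vehicle replicate 1 at 24 h or without vehicle replicate 2, 3 or 4 at 5 days). Between the times, the 0 under CP-775146 became 2 with centring and 1 with log2(intensity + 1), quantile normalization, only agonist groups or the replicate block, and was 0 to 1 with 1 array left out. The 0 under CP-868388 became 1 without the 3 arrays of low Gapdh ratio. The 2 under CP-865520 became 4 with only agonist groups, 0 with the strict filter and 1 with log2(intensity + 100), no filter, quantile normalization, the replicate block or the integrity covariate, and was 1 to 3 with 1 array left out. The 11 in vehicle became 7 with the strict filter and 4 with only vehicle arrays, was 9 to 12 with 1 array left out, and was 11 with the replicate block. Same-numbered arrays did not deviate together throughout: correlations of deviations ran from -0.37 to 0.44, and in no comparison did every pair exceed 0.1. Some pairs did, among them 2 of 4 for CP-868388 between the times and 2 of 4 for CP-775146 against CP-868388 at 24 h. The named probe sets kept their direction under these alternatives, but centring called others of the 26 the opposite way between agonist groups: 1 lower for CP-775146 minus CP-868388 and 4 higher for CP-868388 minus CP-865520 at 24 h, and 3 higher at 5 days under CP-865520. The strict filter removed some of the 26 from testing, and with 1 CP-775146 array left out at 5 days the lone array is assumed to vary like the other groups. The floor limits all folds to lower bounds, and 2 to 4 arrays a group limit the precision.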

Other observations

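A bright transcript also reached the floor but missed the rule, because it did so at 5 days only. Of the 105 other probe sets at the floor on 10 to 15 agonist arrays, 94795_AT had the highest vehicle mean, 2113, and was singled out after its values were seen. Its intensity was 2462 ± 460 (SD, n = 4) under vehicle at 24 h, between 73 and 167 under CP-775146, between 110 and 262 under CP-865520 and between 385 and 884 under CP-868388. At 5 days it was 1765 ± 401 under vehicle and at 50 on all 10 agonist arrays. At 24 h the CP-868388 livers were thus above those of the other compounds in 94795_AT, whereas most of the 26 dim probe sets were at the floor under CP-868388.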
